A study of Mus musculus with 27 samples.

Results

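Untreated FLK1+ mesoderm cells were compared with untreated HE1 cells, the early hemogenic endothelium that the same cultures give rise to, on 4 of the 27 one-colour Agilent mouse arrays of the study. Each population was measured on 2 arrays. The comparison covered those of the 37208 genes and transcripts on the array that passed a background filter. Both populations came from the dnFOS line, a mouse ESC line in which a Flag-tagged dominant-negative FOS peptide stands under a DOX-inducible promoter. DOX was not given to any of these 4 samples. FLK1+ cells were purified with magnetic beads from embryoid bodies of 3.75 days and used at once. HE1 cells (KIT+TIE2+CD41-) were sorted from blast cultures of such FLK1+ cells 2 days later. Untreated SM cells, the vascular smooth muscle population of the same cultures with 3 arrays, served as a second population of that age to set HE1 against. The ESCs had been grown on mouse embryonic feeder cells and had been selected as clones. No label says whether the 2 replicates of a group came from separate differentiations, so the p-values measure the spread between these samples.

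In the embryo, FLK1+ mesoderm leaves the primitive streak under the control of T-box and MESP transcription factors and of WNT, FGF and NODAL signals. Part of it forms hemogenic endothelium, a vascular endothelium that can bud off blood cells in the endothelial-to-hematopoietic transition. ETS and SOXF transcription factors are known to drive the endothelial programme, and RUNX1 with GFI1 and GFI1B is known to close it when blood cells form. AP-1 factors, the dimers of FOS, JUN and related proteins, are the subject of the study.

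The level of a gene is given here as the log2 of its signal minus the 75th percentile of that array, so that 0 is the signal of a bright probe, and a change is the HE1 mean minus the FLK1+ mean on this log2 scale. Levels were not compared between genes. A gene was tested where its probe stood well above background on both arrays of at least 1 population, and was called where the adjusted p of limma was under 0.05 and the change at least 2-fold. The spread came from all 27 arrays. Where the lower population was nowhere above background, the change in fold is given as a lower bound. For it the dim signal was set no lower than the dimmest probe above background on that array. The bound holds for this scale, this fit and the probe kept, and rests on no detection limit of that probe. After normexp background correction, which raises dim signals, changes against a dim population were smaller, with Tie1 at 5.65. The fitted changes of genes below background in 1 population set no firm order among them. The 75th percentile was 317 and 351 units on the FLK1+ arrays and 124.5 and 128.5 on the HE1 arrays. The share of probes above background was 57.4% and 47.0% for FLK1+ and 53.6% and 70.3% for HE1. Both FLK1+ arrays lay on 1 slide and the HE1 arrays on 2 others, so no value within a slide could be had, and slide and population can be separated only through the other populations. Among these, SM replicate 2 stood apart from the other SM arrays, with Cdh5 at 4.34 against -1.12 and -0.41. A fit with the slide as a block was therefore made without it, and is named below as slide-blocked.

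The labels were first checked against the sorted proteins. Kit lay at -0.28 and -0.58 on the FLK1+ arrays and at 3.47 and 3.83 on the HE1 arrays. Tek, which encodes TIE2, lay at -3.96 and -3.42 in FLK1+ and at 2.22 and 2.74 in HE1. Both genes were higher on each HE1 array than on either FLK1+ array, as a sort for their proteins requires, and are no finding. Kdr, the gene of FLK1 itself, lay at 4.68 and 4.09 in FLK1+ and at 4.44 and 5.74 in HE1, with overlapping arrays. Its change of 0.70 (SE 0.82) was not called, and its 2 probes gave changes of -0.01 and 0.70. Itga2b, which encodes the CD41 that HE1 cells were sorted to lack, lay at -2.66 and -3.06 in FLK1+ and at 1.33 and 0.87 in HE1. It was higher still in the CD41+ populations, at 2.64 and 3.77 in HE2 and at 3.25 and 3.01 in HP. The rise of Itga2b into HE1 was 3.96 (SE 1.11, adjusted p = 0.0271), and between 3.73 and 4.19 and not called whichever of the 4 arrays was left out.

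Of 22919 genes and transcripts tested, 1577 (6.88%) rose and 1062 (4.63%) fell from FLK1+ to HE1, and 938 and 845 of these had a gene symbol. The median change of all genes tested was 0.08. Replicates correlated at 0.977 for FLK1+ and 0.949 for HE1 across genes, which are not independent of each other. Of the genes that rose, 533 were nowhere above background in FLK1+, and of those that fell, 189 were nowhere above background in HE1. Both HE1 arrays lay above both FLK1+ arrays for 37% of the genes tested and below both for 34.2%, so that separation of the arrays was common and is not read as a result. Of the genes called, 784 that rose and 746 that fell were above background on all 4 arrays. The split between the directions turned on the scaling. Falls made up 40.2% of calls. This share was 45.2% after quantile normalization, 49.8% on the values that the authors had processed, 55.1% after background correction by normexp and 82.9% after median scaling, under which the median gene moved to -0.91. Under all 5 scalings together 463 rises and 542 falls were called. Leaving out 1 array gave 506 rises and 364 falls without FLK1+ replicate 1, 850 and 464 without FLK1+ replicate 2, 675 and 337 without HE1 replicate 1, and 837 and 545 without HE1 replicate 2. The slide-blocked fit called 1067 rises and 1181 falls. Of the genes named here, Batf3, Bmp4, Cbfa2t3, Ccnd2, Cdx2, Dppa5a, Fgf4, Gfi1, Hk1, Igf2r, Itga2b, Itgb3, Jdp2, Klf4, Lfng, Lyl1, Mecom, Mpo, Notch1, Notch4, Nuak2, Pf4, Pkm, Psmb8, Smad1, Sox18, Tap1 and Twist1 kept their direction but were not called in that fit.

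**Figure D1:**
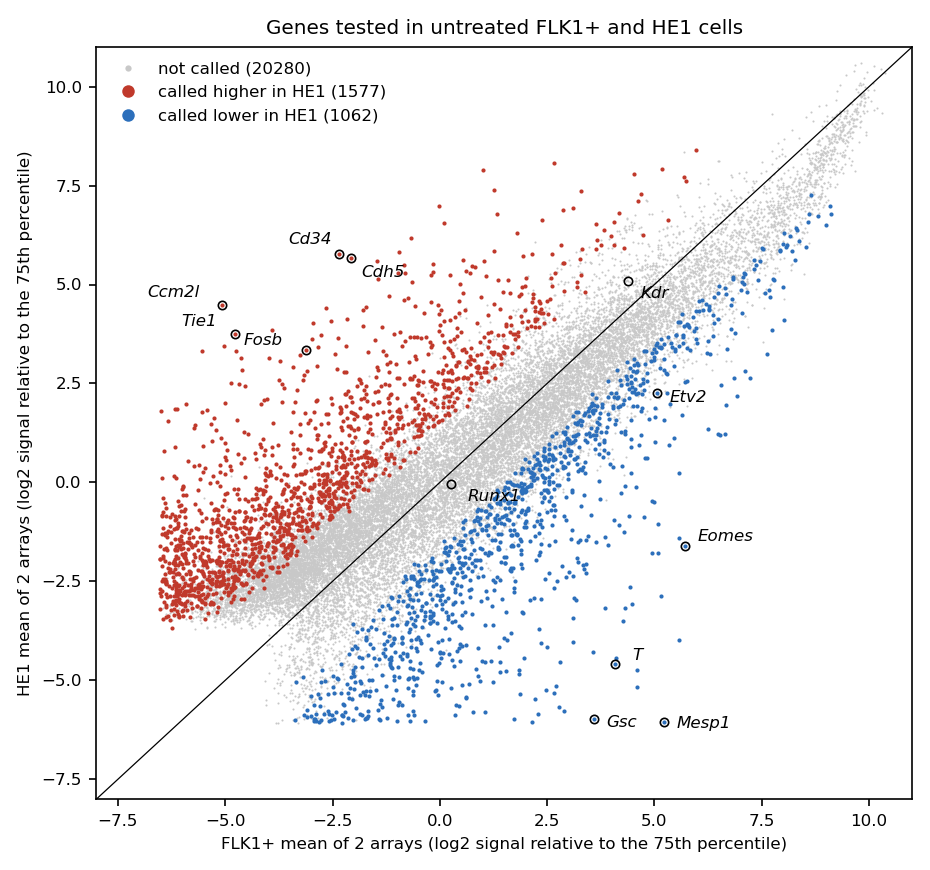
Mean level of each of the 22919 tested genes in FLK1+ (horizontal axis) and HE1 (vertical axis), as log2 signal relative to the 75th percentile of the array, over 2 arrays each. Red points are the 1577 genes called higher and blue points the 1062 called lower in HE1, grey points were not called and the line marks equal levels. Mesp1, Gsc and T lie far below the line, and Ccm2l, Tie1, Cd34 and Cdh5 far above it.

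Genes of the primitive streak and early mesoderm stood among those that fell furthest. Mesp1, a transcription factor of the first mesoderm, lay at 5.73 and 4.74 in FLK1+ and at -5.80 and -6.28 in HE1, where it was not above background on either array. It was at least 509-fold lower in HE1 on this scale (adjusted p = 9.63e-06), and its change was -6.93 after normexp. Gsc, the organizer homeobox gene, went from 4.08 and 3.11 to -5.78 and -6.18, a difference of at least 163-fold. T, which encodes Brachyury, went from 4.05 and 4.13 to -5.78 and -3.39, and Eomes, a second T-box gene, from 5.78 and 5.66 to -1.84 and -1.35. In none of these did the populations overlap, which the rule for the 12 largest falls requires of Mesp1, Gsc and T.

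Of the 24 genes listed for primitive streak and mesoderm 23 were tested, and 19 of these fell and 0 rose, against a background of 4.63% falling. Their median change was -4.72, against 0.08 for all genes. Evx1 fell by 9.55, Wnt3 by 6.53 and Snai1, a repressor of epithelial genes, by 4.49. The changes of Foxf1, Msgn1, Tbx6 and Rspo3 lay between -1.99 and -0.17 and were not called, and Rspo3 was named after its value was seen. Between 14 and 17 of the list fell when 1 of the 4 arrays was left out, and 19 fell in the slide-blocked fit.

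**Figure D2:**
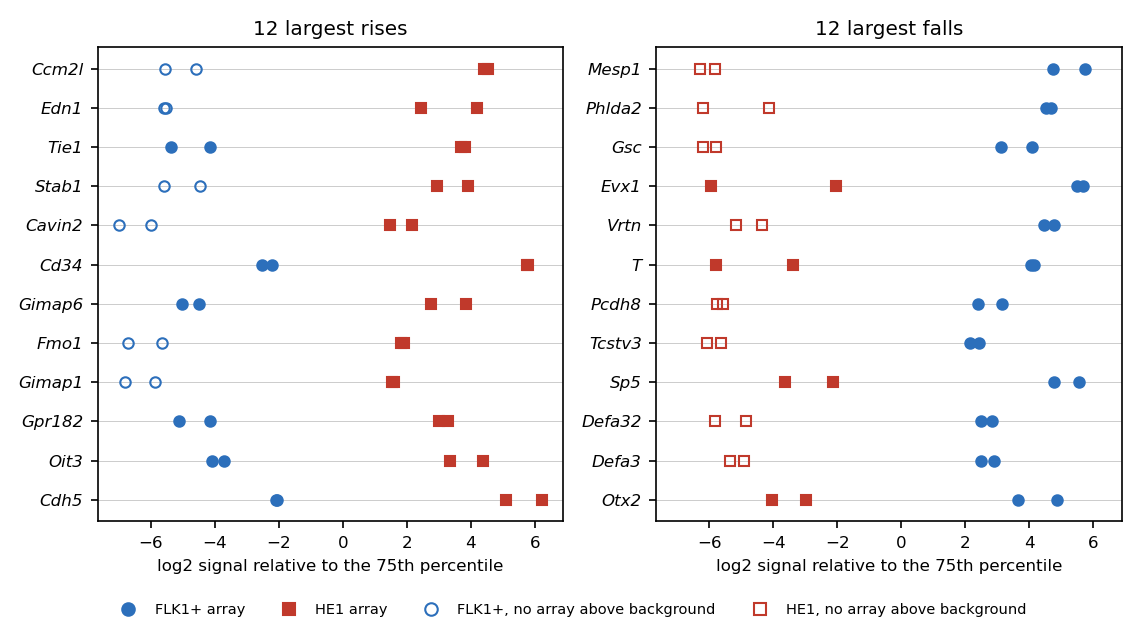
Level on each array of the 12 genes with the largest called rises (left) and the 12 with the largest called falls (right), as log2 signal relative to the 75th percentile of the array. Blue circles are the 2 FLK1+ arrays and red squares the 2 HE1 arrays, and open symbols mark a population in which neither array was above background. The HE1 arrays of Tie1 lay at 3.81 and 3.69 and the FLK1+ arrays at -4.16 and -5.37. Only genes with separated arrays were chosen for these panels.

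Of the 12 called genes with a symbol and the lowest fitted changes, Mesp1, Gsc, Evx1 and T were on that list and the others were not. Phlda2, an imprinted gene known to restrain placental growth, went from 4.51 and 4.68 to -4.14 and -6.19, at least 327-fold lower. Vrtn, known for its part in setting vertebral number, was at least 328-fold lower and Pcdh8, a protocadherin of the paraxial mesoderm, at least 92.8-fold. Sp5, a direct target of WNT signalling, fell by 8.03. Tcstv3, a gene of a multicopy family, was at least 66.1-fold lower. Defa32 and Defa3 were at least 86.0-fold and 87.7-fold lower, and since their probes may detect each other's transcripts these are 1 uncertain observation. For Defa3 the mean of all its probes gave a change of -1.45, which was not called.

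The list of WNT and FGF genes shares Wnt3, Wnt3a and Fgf8 with the mesoderm genes. Of 29 tested, 13 fell, against a background of 4.63%, 15 were not called and 1, the receptor gene Fzd4, rose by 3.62. The median change was -1.92. The ligand gene Fgf3 went from 3.25 and 2.97 to -4.48 and -3.59, and Fgf8 from 4.86 and 3.72 to -1.20 and -1.28, so that both populations were separated. Their changes were -7.15 (SE 0.86, adjusted p = 4.75e-05) and -5.53 (SE 0.92, adjusted p = 0.000731). Fzd4 was named after its value was seen. Between 8 and 9 genes of the list fell without 1 of the 4 arrays, and 12 in the slide-blocked fit.

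Genes of the epiblast and of pluripotent cells were lower in part. Of 19 tested, 8 fell and 1 rose, against backgrounds of 4.63% and 6.88%, with a median change of -2.33, and of 14 detected in both populations 4 fell, against 3.07% of all genes so detected. Otx2 went from 4.87 and 3.65 to -2.98 and -4.02 and Pou5f1, which encodes OCT4, from 3.55 and 2.79 to -3.39 and -2.54. These populations did not overlap, with changes of -7.76 (SE 0.70, adjusted p = 4.30e-06) and -6.14 (SE 0.98, adjusted p = 0.000522). Fgf5 fell by 6.58. Dppa5a fell by 7.03, a call that was lost without FLK1+ replicate 1 (-7.00), without FLK1+ replicate 2 (-7.05) and without HE1 replicate 2 (-6.39), and Fgf4 fell by 4.02, a call lost without FLK1+ replicate 1 (-3.91) and without HE1 replicate 1 (-2.82). Klf4, the gene that rose, was chosen after its value was seen. Its change of 1.78 was between 1.40 and 2.16 and not called without any 1 of the 4 arrays. Between 4 and 6 genes of the list fell in these fits.

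Of 15 genes of cardiac mesoderm tested, another derivative of FLK1+ cells, 5 fell and 2 rose, against backgrounds of 4.63% and 6.88%, with a median change of -1.05. Of 11 detected in both populations 2 fell and 1 rose, against 3.07% and 3.47% of all genes so detected. Myl7, an atrial myosin light chain, went from a mean of 2.47 (SD 0.89, n = 2) to -5.74 and -4.76 and was at least 75.04-fold lower in HE1. Isl1 and Tbx3, transcription factors of the cardiac progenitors, fell by 3.61 and 3.16. Tnnt2, a troponin, went from -2.28 and -0.66 to 2.77 and 3.08, and Mef2c, which endothelial cells also use, from -5.32 and -5.83 to -0.29 and -1.25. The rise of Tnnt2 was 4.40 (3.59 and not called without FLK1+ replicate 1) and Mef2c was at least 10.8-fold higher (4.33 and not called without HE1 replicate 1).

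Endothelial genes stood among those that rose furthest. Tie1, an endothelial receptor tyrosine kinase, went from -4.16 and -5.37 in FLK1+ to 3.81 and 3.69 in HE1, and Stab1, a scavenger receptor of sinusoidal endothelium, from -4.47 and -5.58 to 3.92 and 2.96. Cd34, a sialomucin of endothelium and blood progenitors, lay at -2.20 and -2.52 in FLK1+ and at 5.78 and 5.76 in HE1. Cdh5, which encodes VE-cadherin, lay at -2.05 and -2.07 and at 5.09 and 6.23. Every HE1 array was above every FLK1+ array for these 4 genes, which the rule for the 12 largest rises requires and is no finding. The rise was 8.51 (SE 1.04, adjusted p = 5.43e-05) for Tie1, at least 183-fold for Stab1, 8.13 (SE 1.16, adjusted p = 0.000198) for Cd34 and 7.72 (SE 1.53, adjusted p = 0.00297) for Cdh5. The slide-blocked changes were smaller, at 6.87 for Tie1 and Stab1, 5.87 for Cd34 and 4.30 for Cdh5, and the second probe of Cd34 gave 5.14.

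Of 35 endothelial surface and signalling genes 34 were tested, and 27 rose and 0 fell, against a background of 6.88% rising. The list holds Tek and Kdr, which the sorts used. Its median change was 5.04, and 2.85 with slide as a fixed block. Pecam1, Emcn and Vwf, familiar endothelial markers picked from the 27 after their values were seen, rose by 4.58, 6.14 and 5.27. These calls held in each of the 4 fits without 1 array. Without a call, the change was 2.66 for Egfl7, 2.72 for Flt1 and 2.91 for Flt4, the last 2 being VEGF receptor genes. Between 15 and 21 of the list rose when 1 of the 4 arrays was left out, namely 21 without FLK1+ replicate 1, 15 without FLK1+ replicate 2, 16 without HE1 replicate 1 and 19 without HE1 replicate 2. In the slide-blocked fit 15 rose and 1, the ligand gene Apln, named after its value was seen, fell by 2.43 (its change was -0.81 and not called without the block), and with SM replicate 2 in that fit 10 rose and Cdh5, at 3.67, was not called.

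Of the 12 called genes with a symbol and the highest fitted changes, Tie1, Stab1, Cd34 and Cdh5 were on that list and the others were not. Ccm2l, a relative of the cerebral cavernous malformation gene Ccm2, went from -4.58 and -5.55 to 4.55 and 4.40 and was at least 390-fold higher in HE1 on this scale. Its 3 probes gave changes from 4.11 to 9.54, the slide-blocked change was 6.79, and that after normexp 6.31. Edn1, which encodes the vasoconstrictor endothelin 1, went from -5.59 and -5.51 to 2.45 and 4.19, at least 184-fold higher, with a slide-blocked change of 5.94. Neither was above background in FLK1+, and both were above it on each HE1 array. Cavin2, a caveolar coat protein, was at least 64.6-fold, Fmo1, a flavin monooxygenase, at least 66.8-fold and Gimap1, a GTPase of the immune-associated family, at least 54.1-fold higher. Gimap6 of the same family rose by 8.07, Gpr182, an atypical chemokine receptor, by 7.79 and Oit3 by 7.77. Gpr182 and Oit3 lost their calls in the fit with slide as a block and SM replicate 2 included, with changes of 4.30 and 3.63.

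The promoter windows of Tie1 and Edn1 are shown as those of genes that rose, and that of Mesp1 as one of a gene that fell. They were taken from RefSeq on the build GRCm38.p6, from 250 bases before to 50 after the start of the gene. Capitals mark matches on either strand to 6 short motifs. The letters TGANTCA stand for AP-1 and GGAATG for TEAD factors. ETS factors were searched as AGGAAG. The GATA motif was AGATAA. T-box factors were searched as GGTGTGA, and TCF/LEF factors as CTTTGA. The Tie1 window is chr4:118489800-118490099 (minus strand), the Edn1 window chr13:42301226-42301525 (plus strand) and the Mesp1 window chr7:79793541-79793840 (minus strand).
Tie1: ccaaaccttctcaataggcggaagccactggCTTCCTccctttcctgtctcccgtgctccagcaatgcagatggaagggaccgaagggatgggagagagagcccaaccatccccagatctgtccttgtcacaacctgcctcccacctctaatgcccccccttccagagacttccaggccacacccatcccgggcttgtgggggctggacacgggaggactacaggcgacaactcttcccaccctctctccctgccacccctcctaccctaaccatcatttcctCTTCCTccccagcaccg
Edn1: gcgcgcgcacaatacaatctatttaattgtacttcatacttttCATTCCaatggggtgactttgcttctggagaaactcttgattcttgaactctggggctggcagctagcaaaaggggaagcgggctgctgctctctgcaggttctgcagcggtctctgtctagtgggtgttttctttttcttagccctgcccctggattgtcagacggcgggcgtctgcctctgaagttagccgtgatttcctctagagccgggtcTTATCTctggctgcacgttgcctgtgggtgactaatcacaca
Mesp1: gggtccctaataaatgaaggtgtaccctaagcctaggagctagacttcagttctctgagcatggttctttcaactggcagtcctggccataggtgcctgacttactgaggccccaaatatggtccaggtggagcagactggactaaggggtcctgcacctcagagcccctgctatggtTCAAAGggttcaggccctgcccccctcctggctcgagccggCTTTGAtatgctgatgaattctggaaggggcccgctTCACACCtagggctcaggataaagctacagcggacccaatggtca
The windows of Fosb and Eomes were searched too and held no match, and are not printed. The Tie1 window held 2 ETS matches, the Edn1 window 1 TEAD and 1 GATA match, and the Mesp1 window 1 T-box and 2 TCF/LEF matches. A match is a description of the letters and not a site, and factor binding was not measured on these arrays. Among 32851 promoter windows of this length the ETS letters stood in 35.4%, TEAD in 14.7%, GATA in 11.2%, T-box in 3.98%, TCF/LEF in 16.0% and AP-1 in 7.81%. The ETS letters stood in 38.2% of 939 windows of genes that rose, in 27.6% of 834 windows of genes that fell and in 33.1% of 14217 windows of all tested genes. AP-1 letters stood in 7.56%, 5.52% and 5.34% of these. The shares are given without a test.

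Of 20 transcription factor genes of endothelium tested, 9 rose and 1 fell, against backgrounds of 6.88% and 4.63%. The median change was 3.00, and 0.50 with slide as a fixed block. Erg, an ETS factor that maintains endothelium, went from -5.51 and -5.94 to 1.97 and 0.78, at least 47.6-fold higher. Klf2, a factor induced by blood flow, went from -0.99 and -0.94 to 4.93 and 5.65, and Nr2f2, a factor of venous identity, from -3.07 and -5.07 to 1.04 and 0.58. The populations were separated in each case, and the rises of Klf2 and Nr2f2 were 6.25 (SE 1.23, adjusted p = 0.00283) and 4.88 (SE 0.60, adjusted p = 5.43e-05).

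Etv2, the ETS factor at the top of endothelial specification, moved the other way. It lay at 5.41 and 4.70 in FLK1+ and at 2.33 and 2.17 in HE1, and fell by 2.81 (SE 0.80, adjusted p = 0.0291). Without any 1 of the 4 arrays this was between -3.16 and -2.45 and not called, while the slide-blocked change was -3.93. Of the SOXF genes, Sox18 rose by 6.25 (between 5.55 and 6.95 and not called without any 1 of the 4 arrays, and 3.45 in the slide-blocked fit). Sox7 lay at 0.51 and 0.45 in FLK1+ and at 3.89 and 4.51 in HE1, and Sox17 at 0.92 and -0.17 and at 2.25 and 3.86. Their populations did not overlap, but with standard errors of 1.73 and 1.47 the changes of 3.72 and 2.68 were not called, nor was that of the ETS gene Fli1 at 3.45. The slide-blocked change of Sox7 was 0.09. Between 4 and 6 genes of the list rose when 1 of the 4 arrays was left out, and 4 in the slide-blocked fit.

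**Figure D3:**
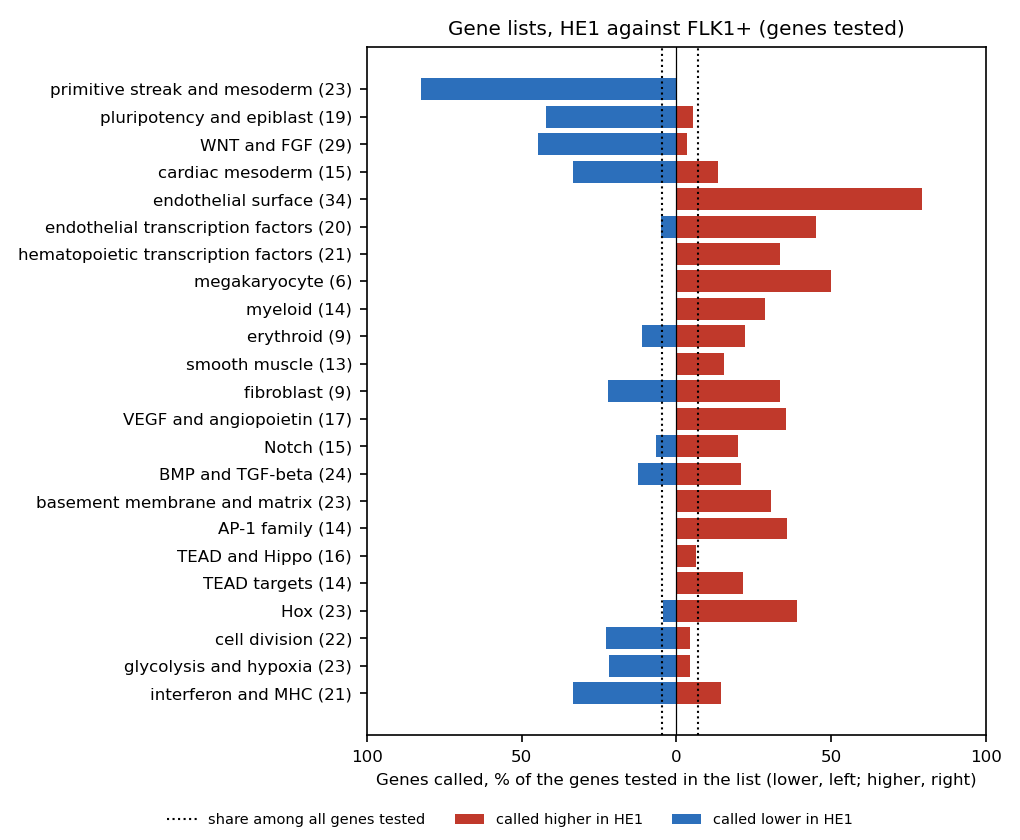
Share of the tested genes of each list called higher (red, to the right) or lower (blue, to the left) in HE1, in percent, with the number tested in parentheses. Dotted lines mark 6.88% and 4.63%, the shares of all tested genes that rose and fell. Endothelial surface genes, 27 of 34 higher, and primitive streak genes, 19 of 23 lower, reach furthest from these lines.

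Transcription factor genes of the blood lineage were tested for 21 of 24 listed, and 7 rose and 0 fell, against a background of 6.88% rising. The median change was 1.53, and 0.75 with slide as a fixed block and 0.54 under median scaling. Without any 1 of the 4 arrays 2 of the list rose, and under median scaling 4. Hoxb4, a homeobox gene of hematopoietic progenitors, went from -1.91 and -1.74 to 2.07 and 2.12 and rose by 3.92 (SE 0.56, adjusted p = 0.000206). This call held in each of the 4 fits without 1 array and in the slide-blocked fit. Lyl1, Gfi1 and Cbfa2t3 rose by 4.61, 4.22 and 3.76 and Mecom was at least 5.95-fold higher, and none of these calls held when any 1 of the 4 arrays was left out, with changes of 4.38 to 4.84, 4.08 to 4.36, 3.21 to 4.30 and 3.72 to 4.58. In the slide-blocked fit 3 of the list rose, and the changes of Lyl1 and Gfi1 were 2.14 and 2.50 and not called.

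Several genes at the centre of blood formation did not pass the test. Runx1 lay at -0.02 and 0.55 in FLK1+ and at 0.25 and -0.35 in HE1, overlapping, against 4.57 and 3.60 in HE2. Its change into HE1 was -0.32 (SE 0.68). Tal1, already at 2.71 and 2.76 in FLK1+, lay at 4.16 and 4.38 in HE1, with a change of 1.53 (SE 0.97) and a slide-blocked change of -0.69. The changes of Gata2 and Lmo2 were 0.87 and -0.53. Runx1, Tal1, Gata2 and Lmo2 were picked after their values were seen.

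Markers of differentiated blood and of other cells were read as whole lists, since the 2 HE1 samples may hold other cells, and a bulk sample does not tell more cells of a type from more RNA per cell. Of 9 erythroid genes tested 2 rose and 1 fell, against backgrounds of 6.88% and 4.63%. The embryonic globin genes Hbb-bh1 and Hbb-y rose and the transferrin receptor gene Tfrc fell. Hbb-bh1 went from -0.27 and -1.04 to 5.04 and 5.09 (rise 5.72, SE 0.89, adjusted p = 0.000408), and on the SM arrays it lay at 8.46, 5.81 and 7.83. Globin genes share long stretches of sequence, so that the probe may detect more than 1. The summed signal of the 13 listed erythroid genes, relative to the 75th percentile, was 18.9 and 23.4 in FLK1+ and 49.5 and 50.9 in HE1, and Epb42 and Rhag were not above background on any of the 4 arrays.

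Of 14 myeloid genes tested 4 rose and 0 fell, against a background of 6.88% rising, and of the 9 that were detected in both populations 0 rose, against 3.47% of all genes so detected. Laptm5, a lysosomal protein of leukocytes, was at least 46.0-fold higher, Csf2rb, the common beta chain of cytokine receptors, went from -4.13 and -5.30 to 1.41 and 1.76, and Tyrobp, a signalling adaptor, rose by 3.77. Mpo, the myeloperoxidase gene, rose by 3.44, a call lost without FLK1+ replicate 2 (2.98) and without HE1 replicate 1 (3.40). The summed myeloid signal was 85.5 and 95.2 in FLK1+ and 129 and 205 in HE1, and Fcgr3 was not above background in HE1. Of 6 megakaryocyte genes tested, Itga2b, Pf4 and Itgb3 rose, against a background of 6.88% rising. Under median scaling 1 of the 6 was called, and 0 in the slide-blocked fit. Pf4 was at least 5.03-fold higher (change 4.27), a call lost without FLK1+ replicate 1 (4.04), FLK1+ replicate 2 (4.51) or HE1 replicate 1 (3.24), and Itgb3 by 3.32, which without any 1 array was between 3.03 and 3.60 and not called. The summed megakaryocyte signal was 0.796 and 0.591 in FLK1+ and 5.65 and 6.40 in HE1, and Ppbp was not above background on any of the 4 arrays.

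Some genes of mesenchymal cells were higher in HE1 as well. Acta2, the smooth muscle actin gene, went from 1.45 and 1.08 to 8.42 and 6.34 and rose by 6.11 (SE 0.67, adjusted p = 1.87e-05), while SM arrays lay between 9.10 and 9.84. Of 13 smooth muscle genes tested 2 rose and 0 fell, against a background of 6.88% rising. These were Acta2 and Cald1, the latter with a rise of 2.67 (2.17 and not called without HE1 replicate 1). Under quantile normalization 4 rose, and under median scaling 1. The summed signal of the 16 listed genes was 224 and 192 in FLK1+, 684 and 320 in HE1 and 1235 to 2196 in SM, and Myh11 and Lmod1 were not above background in FLK1+ or HE1.

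Of 9 fibroblast genes tested 3 rose and 2 fell, against backgrounds of 6.88% and 4.63%. Postn, the periostin gene, went from -6.67 and -5.65 to 2.62 and -0.85, at least 34.0-fold higher, and Col1a2 from 0.97 and 0.69 to 5.45 and 5.46. Col3a1 went from -3.03 and -3.82 to 3.56 and -0.02 and rose by 5.20, but by 3.41 and without a call when HE1 replicate 1 was left out. For Postn, Col3a1 and Acta2 HE1 replicate 1 lay above HE1 replicate 2. Thy1 fell by 3.36, and Twist1 by 1.68, a call that was lost without any 1 of the 4 arrays (-1.89 to -1.48). The summed fibroblast signal was 22.9 and 21.4 in FLK1+, 97.1 and 53.5 in HE1 and 190 to 221 in SM. Of 8 genes of endoderm and epithelium tested 0 rose and 1 fell, against a background of 4.63% falling. Foxa1 was at least 3.24-fold lower (change -2.84), a call lost without FLK1+ replicate 1 (-2.76), FLK1+ replicate 2 (-2.92) or HE1 replicate 1 (-1.90). Afp and Apoa1 were not above background on any of the 4 arrays. The part of blood, smooth muscle or fibroblast cells in these changes was not tested.

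The AP-1 genes were of interest because the cell line carries the means to block their products, although the block was not induced here. Of 14 tested, 5 rose and 0 fell, against a background of 6.88% rising, with a median change of 1.16. Under median scaling the median was 0.17 and 1, Fosb, rose, while 7 rose under quantile normalization or on the authors' values. Fosb went from -2.92 and -3.29 to 3.02 and 3.70 and Jun from 4.24 and 4.09 to 6.99 and 6.61. Fosb rose by 6.46 (SE 0.71, adjusted p = 1.87e-05) and was called under every alternative run. Jun rose by 2.63 (SE 0.57, adjusted p = 0.00536), a call lost without HE1 replicate 1 (2.44) and under median scaling (1.64).

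Batf3 rose by 2.80, Fos by 2.60 and Jdp2 by 1.58, with adjusted p of 0.00709, 0.0485 and 0.0229. Fos was between 1.93 and 3.26 and not called without any 1 of the 4 arrays, Batf3 was not called without FLK1+ replicate 1 (2.78) or HE1 replicate 1 (2.61), and Jdp2 was not called without FLK1+ replicate 1 (1.70), FLK1+ replicate 2 (1.46) or HE1 replicate 1 (1.31). Without a call, the changes were 1.97 for Atf3, 1.78 for Jund, 0.74 for Mafk, 0.59 for Fosl2, 0.19 for Maff, -0.37 for Atf2, -0.40 for Junb, -0.41 for Batf2 and -0.81 for Mafg. Fos, Jun and Atf3 also belong to a list of 12 genes that respond to tissue dissociation. Of 11 of these tested Fos and Jun rose, against a background of 6.88% rising, and the median change was 0.66. The summed signal was 106 and 87.8 in FLK1+ and 212 and 204 in HE1. Under quantile normalization or on the authors' values 5 of the 11 rose, and under median scaling 0. The part of cell handling in the AP-1 changes was not tested. Between 1 and 4 AP-1 genes rose without 1 of the 4 arrays, and 3 in the slide-blocked fit.

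**Figure D4:**
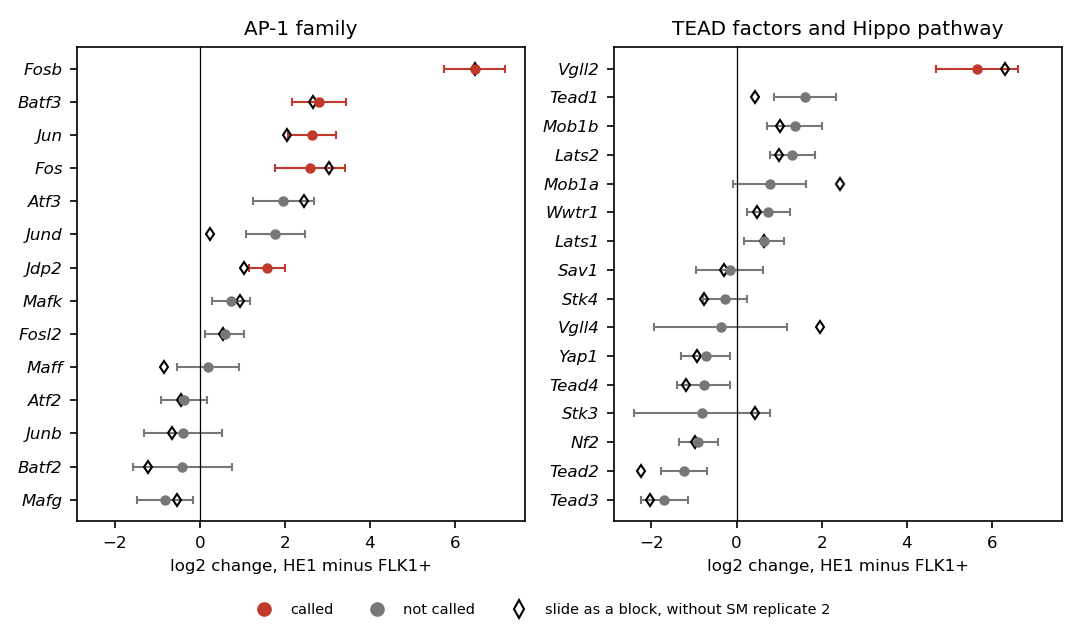
Change from FLK1+ to HE1 of each tested gene of the AP-1 family (left) and of the TEAD and Hippo group (right), on the log2 scale, with bars for the standard error of limma. Red points were called, grey points were not, and diamonds give the slide-blocked change. Fosb at 6.46 and Vgll2 at 5.65 lie to the right of all other genes of their group.

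TEAD factors bind DNA beside AP-1 factors at some sites and take YAP or TAZ as coactivators. Of 16 genes of this group tested, Vgll2, an alternative TEAD cofactor, went from -4.53 and -5.49 to 1.96 and -0.68 and was at least 26.99-fold higher in HE1. It was the only gene of the group called with these settings, 1 of 16 against a background of 6.88%. Under quantile normalization or on the authors' values 3 rose and 1 fell, with the mean of all probes 2 rose and 2 fell, under median scaling 1 rose and 2 fell, and 1 rose and 1 fell in the slide-blocked fit. The changes were 1.62 for Tead1, -1.23 for Tead2, -1.70 for Tead3, -0.77 for Tead4, -0.72 for Yap1 and 0.75 for Wwtr1, which encodes TAZ. The median of the group was -0.22, and 0.45 with slide as a fixed block. Of 14 known TEAD target genes 3 rose and 0 fell, against a background of 6.88% rising, and under median scaling 1 rose. Ankrd1 rose 55.9-fold (a change of 5.16 to 6.45 and not called without any 1 of the 4 arrays). Crim1 rose by 3.05 and Nuak2 by 2.31 (1.86 to 2.77 and not called in those fits).

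The VEGF and angiopoietin list shares Kdr, Flt1, Flt4, Tie1 and Tek with the endothelial surface genes. Of 17 tested 6 rose, Tie1 and Tek included, and 0 fell, against a background of 6.88% rising. FLK1+ was nowhere above background for 3 of the 6. Of 12 genes detected in both populations 2 rose, against 3.47% of all genes so detected. After normexp 4 of the 17 rose. The TIE2 ligand genes Angpt1 and Angpt2 were at least 4.68-fold and 9.65-fold higher, and Angpt1, which went from -6.88 and -5.92 to -0.64 and -3.31, lost its call without HE1 replicate 1 (3.09), after normexp (1.63) and on the authors' values (1.53). Sema3c was at least 4.03-fold higher. In the BMP and TGF-beta list 5 of 24 rose and 3 fell, against backgrounds of 6.88% and 4.63%. The 5 were receptors or coreceptors, namely Eng (4.73), Acvrl1 (4.42), Tgfbr2 (3.97), Bmpr2 (3.18) and Tgfbr3 (2.75). Acvrl1 was not called without FLK1+ replicate 1 (3.88). With slide as a fixed block and SM replicate 2 included, Acvrl1 (2.60) and Bmpr2 (2.03) were not called and 3 rose. The falls numbered 1 under quantile normalization and 5 under median scaling. Those that fell were the ligand genes Bmp7 and Bmp4 and the signal transducer Smad1, by 5.28, 1.91 and 2.33. Bmp4 was not called without FLK1+ replicate 1 (-2.23), FLK1+ replicate 2 (-1.58) or HE1 replicate 2 (-0.89), nor Smad1 without any 1 of the 4 arrays (-2.87 to -1.80), and neither was called in the slide-blocked fit. Bmp4, Smad1 and Tgfbr3 were named after their values were seen.

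In the Notch list 3 of 15 rose and 1 fell, against backgrounds of 6.88% and 4.63%. The balance turned with the scaling, since 2 rose and 4 fell under quantile normalization or on the authors' values. Under median scaling 2 rose and 6 fell, where 625 of all 22919 genes tested rose and 3038 fell. Notch4, the endothelial receptor, went from 0.45 and -0.06 to 3.46 and 3.34 and rose by 3.21, but lost its call without FLK1+ replicate 2 (2.95), without HE1 replicate 1 (3.14) and in the slide-blocked fit (1.64). The fringe gene Mfng rose by 4.44. Notch1 rose by 2.61 (2.06 to 3.16 and not called without any 1 of the 4 arrays), and the fringe gene Lfng fell by 2.51, a call lost without FLK1+ replicate 1 (-2.25), FLK1+ replicate 2 (-2.76) or HE1 replicate 1 (-1.98). Hes1, a Notch target, lay at 1.67 and 1.74 in FLK1+ and at -3.98 and -0.78 in HE1, and with a standard error of 2.02 its change of -4.08 was not called.

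Of 23 basement membrane and matrix genes tested 7 rose and 0 fell, against a background of 6.88% rising. The median change was 1.56, and 0.57 under median scaling, where 5 rose. Col18a1, a collagen of vascular basement membranes, went from 2.61 and 2.14 to 6.10 and 7.16. Timp3, an inhibitor of matrix proteases, rose by 4.15, Fbn1 by 3.76 and Col4a5 by 3.71. The rise of Col18a1 was 4.25 (3.72 and not called without HE1 replicate 2) and that of the nidogen gene Nid1 3.16 (2.98 without FLK1+ replicate 1 and 2.82 without HE1 replicate 2, neither called). Between 3 and 5 of the list rose without 1 of the 4 arrays.

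Hox genes, which set position along the body axis, were tested for 23 of 39 on the array, and 9 rose and 1 fell, against backgrounds of 6.88% and 4.63%. FLK1+ was nowhere above background for 7 of these that rose, and of 7 Hox genes detected in both populations 1 rose, against 3.47% of all genes so detected. After normexp 5 rose, and under quantile normalization, the authors' values or median scaling 6 or 7 rose and 3 fell. Hoxb1, the most 3' gene of its cluster, was at least 17.3-fold lower in HE1, from 0.32 and 0.39 to -5.66 and -6.09. The genes that rose lay in the Hoxb and Hoxd clusters. Hoxd4 was at least 12.6-fold, Hoxd8 at least 19.8-fold and Hoxb7 at least 7.04-fold higher, the last with a change of 2.87 and no call without HE1 replicate 1, and Hoxb5 rose by 3.96, which was between 3.06 and 4.87 and not called without any 1 of the 4 arrays. Between 4 and 7 rose in the fits without 1 array. Of the Cdx genes, which regulate Hox genes, Cdx1 was at least 17.1-fold lower. Cdx2 rose by 3.48, with HE1 arrays at 0.31 and 3.75, but was not called without FLK1+ replicate 1 (2.75) or without HE1 replicate 2 (1.76).

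Among 16 imprinted genes tested, Phlda2 fell and 4 rose, against backgrounds of 4.63% and 6.88%, and under median scaling 1 rose. Igf2, the embryonic growth factor gene, went from 0.47 and 0.73 to a mean of 5.33 (SD 0.38, n = 2) and rose by 4.73 (SE 0.71, adjusted p = 0.000310). Mest rose by 2.73, Igf2r by 2.38 and Grb10 by 1.86. Mest was between 2.21 and 3.25 and not called without any 1 of the 4 arrays, Igf2r was not called without FLK1+ replicate 2 (2.24) or HE1 replicate 1 (2.31), and Grb10 was not called without FLK1+ replicate 1 (1.90), FLK1+ replicate 2 (1.81) or HE1 replicate 1 (1.21).

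Of 22 cell division genes 5 fell and 1 rose, against backgrounds of 4.63% and 6.88%, with a median change of -0.97. Under quantile normalization 3 fell and 3 rose, and under median scaling 9 fell and 1 rose. Cdkn2a, which encodes cell cycle inhibitors, went from -0.64 and -1.34 to 3.09 and 2.16 and rose by 3.61 (SE 0.61, adjusted p = 0.000877). Ccnd2 fell by 3.35 and Ccne1 by 2.55, both cyclin genes of the G1 phase. Ccnd2 was not called without FLK1+ replicate 1 (-3.56), FLK1+ replicate 2 (-3.15) or HE1 replicate 2 (-2.55), nor Ccne1 without FLK1+ replicate 1 (-2.30) or HE1 replicate 1 (-2.55), and between 0 and 1 of the list fell in the fits without 1 array.

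Of 23 glycolysis and hypoxia genes 5 fell and 1 rose, against backgrounds of 4.63% and 6.88%, with a median change of -0.90. The falls numbered 1 under quantile normalization, 3 on the authors' values and 11 under median scaling. The phosphofructokinase gene Pfkl went from 5.11 and 4.19 to 0.60 and 1.27 and fell by 3.71 (SE 0.66, adjusted p = 0.00127). Pkm, the pyruvate kinase gene, fell by 3.05, a call lost without FLK1+ replicate 1, HE1 replicate 1 or HE1 replicate 2 (-3.10 to -2.67), and the hexokinase gene Hk1 rose by 2.45 (2.00 to 2.91 and not called without any 1 of the 4 arrays). Between 1 and 4 fell in the fits without 1 array, and 10 in the slide-blocked fit.

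Of 21 interferon and antigen presentation genes 7 fell and 3 rose, against backgrounds of 4.63% and 6.88%. FLK1+ was nowhere above background for the 3 that rose, and of 15 genes detected in both populations 0 rose and 6 fell, against 3.47% and 3.07% of all genes so detected. Without 1 of the 4 arrays between 1 and 3 fell and between 1 and 2 rose. Ifitm1, an interferon-induced transmembrane protein also used in the early mesoderm, went from 6.75 and 6.53 to 1.48 and 0.97 and fell by 5.42 (SE 0.55, adjusted p = 9.52e-06). Psmb8 and Tap1, of the antigen processing machinery, fell by 4.40 and by a bound of at least 6.43-fold (change -3.92), and without any 1 of the 4 arrays these were -4.67 to -4.13 and -4.25 to -3.58 and not called. Ifit3 was at least 7.45-fold and Ifit1 at least 1.97-fold higher, and Ifit1 was not called without FLK1+ replicate 1 (2.72), HE1 replicate 1 (2.99) or HE1 replicate 2 (3.09). In the slide-blocked fit 2 fell and 3 rose.

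FLK1+ cells after 5 h and after 1 day of blast culture, also untreated and with 2 arrays each, gave the levels between both populations. The culture after 1 day holds a mixture of cells, and the values are given without a test. Mesp1 lay at 1.57 and 0.95 after 5 h and at -4.32 and -4.51 after 1 day, Gsc at 0.12 and -0.09 and then at -4.18 and -5.83, and Eomes at 4.97 and 4.63 and then at 2.71 and 1.99. All of these were below FLK1+ after 5 h and lower again after 1 day. Cdh5 lay at -1.25 and -1.49 after 5 h and at 0.65 and 0.40 after 1 day, and Tie1 at -3.01 and -3.87 and then at -2.18 and -0.94. Both were between FLK1+ and HE1 on these arrays. Etv2 lay at 3.52 and 4.14 after 5 h and at -0.03 and -0.69 after 1 day, so that the culture after 1 day was below both FLK1+ and HE1. Kit also went below FLK1+ in the culture, to -2.01 and -2.61 after 1 day. Runx1, at 1.99 and 1.43 after 1 day, was there above each FLK1+ and each HE1 array. Edn1, at -0.52 and -1.01 after 5 h, was above both FLK1+ arrays from then on.

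**Figure D5:**
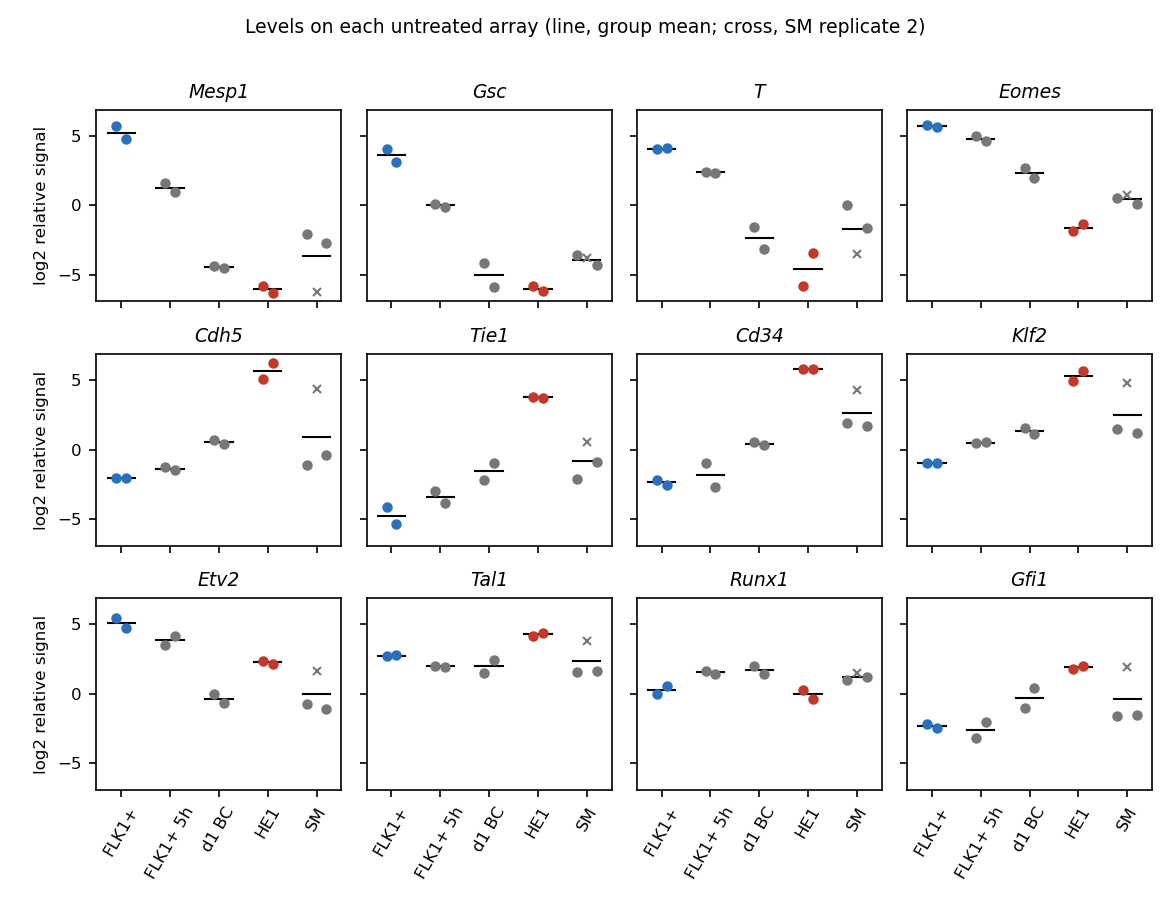
Level of 12 genes on each untreated array of FLK1+, the cultures after 5 h and 1 day (d1 BC), HE1 and SM, as log2 signal relative to the 75th percentile of the array. Points are arrays, lines are means of 2 arrays (3 for SM) and the cross is SM replicate 2, which has Cdh5 at 4.34. Mesp1 drops below -4 by 1 day, while Runx1 lies between -0.35 and 0.55 in FLK1+ and HE1.

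HE1 was set against SM, sorted from the same cultures at the same age, to see where the levels of both differed, which is also the difference between their changes from FLK1+. Of 23406 genes tested 50 (0.214%) were higher and 73 (0.312%) lower in HE1 than in SM, 0.526% in all. The HE1 arrays are part of both comparisons. Kit, which the sort used, differed by 4.04 (SE 0.68, adjusted p = 0.0207). Eng differed by 4.02, Notch4 by 4.01, Stab1 by 5.06, Tie1 by 4.58, Mfng by 3.36 and Csf2rb by 2.47. Lower in HE1 than in SM were Vrtn by -4.11, Myl7 by -3.46, Otx2 by -3.32 and Jdp2 by -2.02. Vrtn and Myl7 were nowhere above background in HE1, so that the sizes of their differences are not firm. Jdp2 had risen from FLK1+ by 1.58 in HE1 and by 3.60 in SM. Mesp1, T and Eomes were not called between HE1 and SM, nor were Fosb (-0.52) and Igf2 (0.18), for which SM stood above FLK1+ by 6.98 and 4.56.

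These counts rested on single arrays and on the fit. No gene was called with the 15 untreated arrays alone or with a replicate block. These fits had 1970 and 1925 genes at an unadjusted limma p under 0.05. Without SM replicate 2, 306 genes were higher and 248 lower in HE1. Without SM replicate 1, without SM replicate 3 or without HE1 replicate 2 the counts were 0 and 0, with 1468 to 1594 genes at an unadjusted limma p under 0.05 in these fits against 2011 with all arrays. Without HE1 replicate 1 they were 6 and 83, and without either FLK1+ replicate 26 and 39. Cdh5 lay at -1.12, 4.34 and -0.41 on the SM arrays and at 5.09 and 6.23 in HE1, a difference of 4.72 that was not called and became 6.42 without SM replicate 2. SM replicate 2 also had 89.6% of its probes above background, against 59.5% on SM replicate 1 and 55.8% on SM replicate 3. The part of endothelial cells or of the signal of the array in its values was not tested.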

How the data were processed

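RNA of 27 samples in 13 groups had been hybridised by the authors to one-colour Agilent mouse arrays, labelled with Cy3. Per the file headers the deposited scanner files hold the spot intensity after background subtraction by Feature Extraction 10.7.3.1 (the labels name 10.7.1.1). The deposited value table holds log2 values that the authors had processed, with limma named in their notes, and served as an alternative. From the intensities the log2 minus the 75th percentile of each array was computed, control spots were left out, and 1 probe per gene was kept, that with the highest mean over all arrays. Groups came from the labels. Differences were tested with limma 3.58.1 (R 4.3.3) on the 13 group means, with 14 residual and 4.41 prior degrees of freedom and Benjamini-Hochberg adjustment over all genes tested. The limma fit alone was tested, on simulated arrays with changes of known size and no slide effects. The number of arrays limits the precision.

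Named genes were the sorting markers, the 12 largest called rises and falls with separated arrays, up to 5 called and 3 uncalled members of each list with the largest changes, and all AP-1 and TEAD genes. Genes outside this rule are marked as picked after their values were seen. The comparison, the gene lists and the motifs were chosen with earlier results of these data known. Alternatives covered background correction, scaling, the authors' values, dim probes, probes per gene, slide, scan day, replicate number, variance model, arrays in the fit and thresholds. The alternatives that leave out an SM array, or SM replicate 2 with slide as a block, were added after seeing the data. Promoters came from RefSeq (GRCm38.p6). Shared replicate numbers did not pair the FLK1+ and HE1 samples (correlation of the replicate differences -0.08), and other populations were not checked for this. DOX-treated arrays entered the fit for the spread and counted in the choice of the probe kept. Where slide was a block, they also helped to set the slide effects and so the changes. Some results are not reported here.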

Additional observations from a re-analysis of the deposited data

Results flagged for a closer look

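For 16 of the genes named the change from FLK1+ differed between HE1 and SM by the limma test of the difference itself, which equals the HE1 level minus the SM level on the log2 scale. It was above 0 for Gimap1 (5.39), Stab1 (5.06), Gimap6 (4.89), Emcn (4.76), Vwf (4.59), Tie1 (4.58), Kit (4.04), Eng (4.02), Notch4 (4.01), Mfng (3.36) and Csf2rb (2.47). It was below 0 for Vrtn (-4.11), Myl7 (-3.46), Defa3 (-3.35), Otx2 (-3.32) and Jdp2 (-2.02). Vrtn, Myl7 and Defa3 were nowhere above background in HE1, so that the sizes of their differences are not firm. For Defa3 the mean of all its probes was not called in the change from FLK1+. Kit encodes a protein that HE1 cells were sorted for. All comparisons with SM rest on 2 and 3 arrays, of which SM replicate 2 stood apart, and no gene was called in them without SM replicate 1, without SM replicate 3 or without HE1 replicate 2, where limma left 1468 to 1594 genes at an unadjusted p under 0.05.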

How the results depend on the processing

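The number of genes that rose from FLK1+ to HE1 (1577) and that fell (1062) depended on the processing. After background correction by normexp 859 rose, and under median scaling 625 rose and 3038 fell. On the authors' values 1711 fell. Where only genes detected in both populations were kept, 628 rose and 556 fell, with fewer genes tested. With slide as a fixed block 855 rose, and with slide as a random block 1714 fell. Array quality weights gave 2851 and 2263, an adjusted p under 0.01 gave 664 and 400, and an unadjusted p under 0.05 gave 3636 and 2861. Without 1 of the 4 arrays between 506 and 850 rose and between 337 and 545 fell, and without SM replicate 2 it was 1753 and 1129. The numbers higher or lower in HE1 than in SM (123 together) were 186 with normexp, 454 after quantile normalization, 66 with median scaling, 747 on the authors' values, 58 with no filter on dim probes, 36 with genes detected in both, 74 with every probe on its own, 612 with slide as a random block, 195 with scan day as a block, 305 with a mean-variance trend, 1493 with array weights, 369 with slide as a fixed block without SM replicate 2, 0 at an adjusted p under 0.01 and 1955 at an unadjusted p under 0.05. Leaving out 1 array gave between 0 and 554. With the 15 untreated arrays alone limma called 0, with 1970 genes at an unadjusted p under 0.05. The replicate number was checked as a pairing for FLK1+ and HE1 only. A replicate block gave 1772 rises and 1388 falls from FLK1+. Between HE1 and SM it gave 0 calls, with 1925 genes at an unadjusted limma p under 0.05. Of the genes named, 126 were called, and 79 of these kept the call without any 1 of the 4 arrays. The call was lost by 37 without FLK1+ replicate 1, 31 without FLK1+ replicate 2, 39 without HE1 replicate 1, 28 without HE1 replicate 2, 35 with slide as a fixed block, 28 in the slide-blocked fit, 21 with median scaling, 16 with scan day, 15 with normexp and 1 (Hoxb5) with the replicate block. None of these named genes changed direction in these fits, while of all 1062 falls 1026 kept their direction under all 5 scalings. Among genes without a call, the change turned to -0.40 for Fosl2, -0.12 for Gata2, -0.29 for Kdr, -0.80 for Maff, -0.25 for Mafk and -0.24 for Wwtr1 under median scaling, to -0.14 for Flt4, -2.06 for Gata2, -0.37 for Kdr, -0.74 for Maff, -0.69 for Sox7 and -0.81 for Tal1 with slide as a fixed block, and to -1.71 for Gata2, -0.16 for Kdr, -0.84 for Maff and -0.69 for Tal1 in the slide-blocked fit. Scan day gave -0.45 for Gata2, -0.12 for Kdr and -0.17 for Maff, and slide as a random block -0.41 for Gata2 and -0.33 for Maff. Atf2 was at 0.49 with the mean of its probes. Rspo3 was at 0.24 on the authors' values and 0.27 after quantile normalization. Without 1 array Rspo3 lay between -0.89 and 0.56, Batf2 between -1.59 and 0.76 and Maff between -0.033 and 0.42. The causes were not tested. Dim signal on the HE1 arrays, whose 75th percentiles were the lower, limits what a fall can be measured to.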
